A study of Mus musculus with 8 samples.

Results

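A set of 10 genes of iron uptake, storage and export was followed in RNA-seq of mouse hearts. They are Tfrc, Fth1, Ftl1, Slc40a1, Slc11a2, Hamp, Aco1, Ireb2, Hmox1 and Steap3, chosen by symbol through their Entrez numbers, and all 10 were found among the 23282 genes of the deposited table. The list was drawn up with an earlier genotype result for Tfrc in these libraries known. The genotype differences of the 10 genes are therefore given as a description of these hearts and support nothing further. AE3-null hearts (4 libraries) were compared with wild-type hearts (4 libraries), all from male FVB/N mice aged 4 months. Slc4a3 encodes AE3, a membrane protein of cardiac muscle that trades chloride for bicarbonate. The labels give no further detail of the null allele. Per the design text 4 animals per genotype were used, and the p-values reflect variation among their libraries.

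Iron enters most cells as transferrin bound to the transferrin receptor, is reduced inside the endosome and passes to the cytosol through a divalent metal transporter. What is not used is stored inside shells of ferritin heavy and light chains or leaves through ferroportin, which the peptide hormone hepcidin removes from the membrane. When cytosolic iron is scarce, the iron regulatory proteins bind a hairpin called the iron-responsive element. Bound to the 5′ UTR of ferritin and ferroportin mRNAs they block translation, and bound to the 3′ UTR of transferrin receptor mRNA they protect it from decay. In the heart, iron is needed for respiration and for oxygen binding by myoglobin, and both shortage and overload of iron are known to harm heart muscle.

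Tfrc and Slc40a1 were the members with the largest differences in each direction. Any part of the iron-responsive element in the genotype differences was not tested. Its hairpins are shown first, in the 3′ UTR of Tfrc and in the 5′ UTR of Slc40a1, Fth1 and Ftl1. They were read from GENCODE M21 transcripts (build GRCm38), with the 6 loop bases CAGTGN in capitals. The letters required were a C, 5 bases, the loop, 5 bases pairing with the first 5, and at least 3 of 5 base pairs below the C.
Tfrc, 3′ UTR, chr16:32631220-32631246, plus strand: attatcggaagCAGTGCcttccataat
Tfrc, 3′ UTR, chr16:32631599-32631625, plus strand: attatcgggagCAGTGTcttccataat
Tfrc, 3′ UTR, chr16:32631664-32631690, plus strand: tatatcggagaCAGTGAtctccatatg
Tfrc, 3′ UTR, chr16:32631711-32631737, plus strand: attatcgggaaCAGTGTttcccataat
Fth1, 5′ UTR, chr19:9982733-9982759, plus strand: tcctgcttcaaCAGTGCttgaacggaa
Ftl1, 5′ UTR, chr7:45459780-45459806, minus strand: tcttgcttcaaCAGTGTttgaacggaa
Slc40a1, 5′ UTR, chr1:45925466-45925492, minus strand: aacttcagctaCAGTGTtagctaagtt

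The 4 Tfrc hairpins lay within 518 bases of the 3′ UTR. Of 21875 protein-coding genes searched, 7 (0.032%) held such a hairpin in a 5′ UTR, 3 of them members, and 35 (0.16%) held one in a 3′ UTR, Tfrc among them. Within coding sequence 50 genes (0.229%) held one, and no member was among them. Tfrc was the only gene with 4 or more in one transcript. No such letters were found in the other 6 members. A match is a description of letters and not evidence of binding in these hearts.

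Total counts ranged from 9133628 to 27078351 per library, and Slc4a3 checked the labels. It stood at 31.5 to 34.6 CPM (counts divided by the TMM-scaled library size in units of 1e6) in AE3-null libraries, against 378 to 388 CPM in wild-type libraries. Of 14136 tested genes, 6.47% were called by edgeR's quasi-likelihood test at a Benjamini-Hochberg adjusted p under 0.05, 3.16% higher and 3.31% lower in AE3-null hearts. Cardiomyocyte markers were abundant in every library, with a summed level of 85086 to 91769 CPM in AE3-null and 84835 to 91613 CPM in wild-type libraries over 8 genes, most of it from Myh6. Of the 8, Pln (log2 0.14, SE 0.030) and Tnnt2 (log2 0.12, SE 0.035) were called higher in AE3-null hearts and none lower. In whole hearts, fewer cells of a type and less RNA per cell cannot be told apart.

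All 10 members passed the filter on low counts. In AE3-null hearts 1 member, Tfrc, was called higher, 2 members, Slc40a1 and Ftl1, were called lower, and 7 were not called. The log2 fold changes ran from -0.56 to 0.95 with a median of 0.030, beside a median of -0.0018 over all tested genes. The 2 genotypes did not overlap for 3 members that were higher (Tfrc, Slc11a2, Aco1) and 2 that were lower (Slc40a1, Ftl1), and 12.2% of all tested genes were so separated, 6.10% with AE3-null hearts higher and 6.15% with AE3-null hearts lower.

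**Figure D1:**
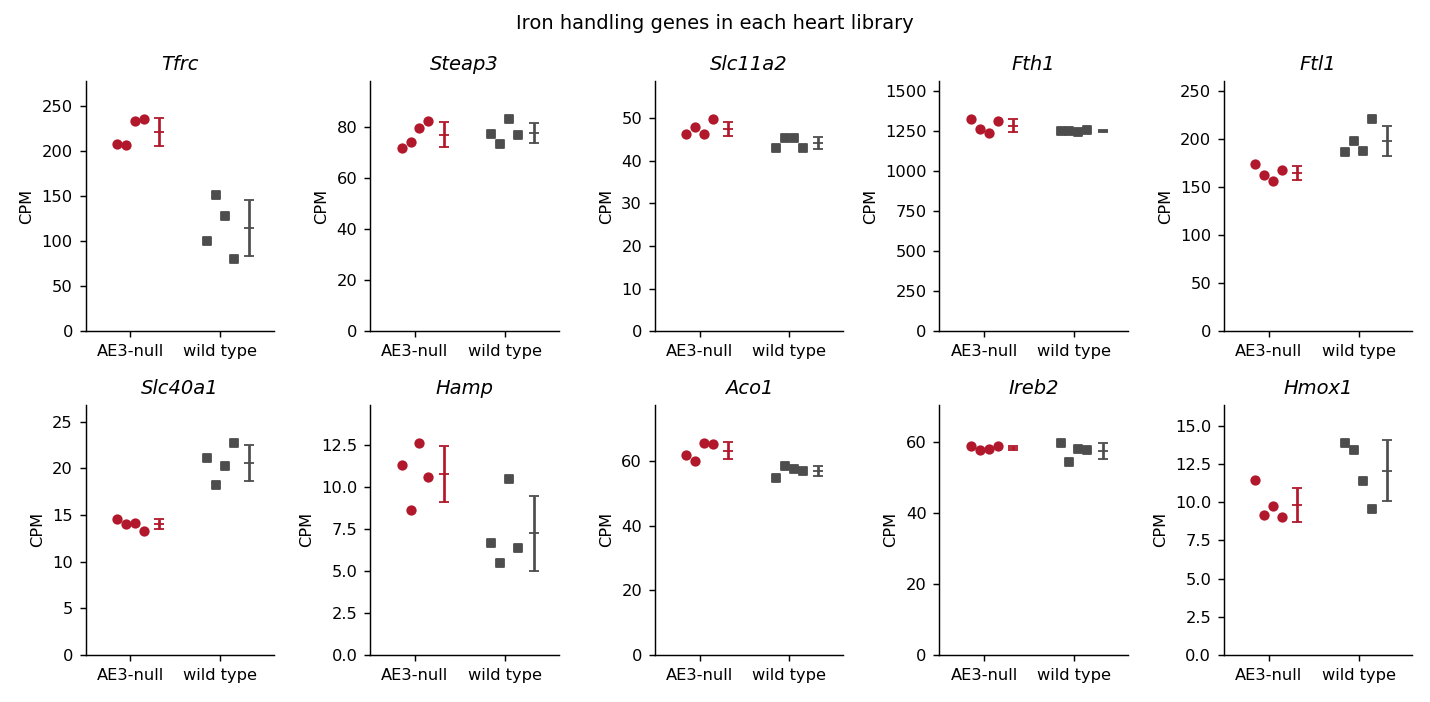
CPM of each of the 10 iron genes in the 4 AE3-null (circles, left) and 4 wild-type libraries (squares, right), each panel from 0, with the mean and SD beside the points. Tfrc lay between 207 and 235 CPM in AE3-null and between 80.1 and 151 CPM in wild-type libraries, while Fth1 lay between 1238 and 1323 CPM in AE3-null and between 1244 and 1255 CPM in wild-type libraries.

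**Figure D2:**
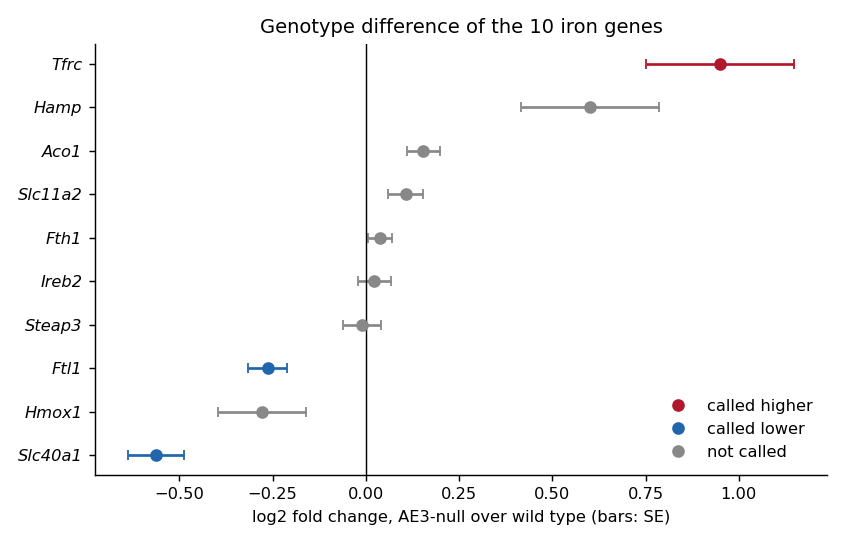
log2 fold change of AE3-null over wild type for the 10 iron genes, with the SE as bars. Tfrc was called higher (0.95), Slc40a1 (-0.56) and Ftl1 (-0.26) were called lower, and the other 7 were not called.

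The largest difference among the members was in uptake. Tfrc (Entrez 22042, chromosome 16) encodes the receptor that takes up iron-loaded transferrin. It stood at 208, 207, 233 and 235 CPM in AE3-null replicates 1 to 4, against 101, 151, 128 and 80.1 CPM in wild-type replicates 1 to 4. Every AE3-null library lay above every wild-type library, and the wild-type libraries spread more widely among themselves. Tfrc averaged 221 ± 15.6 CPM in AE3-null and 115 ± 30.9 CPM in wild-type hearts (SD, n = 4 each), a log2 fold change of 0.95 (SE 0.20), or 1.93-fold. Of the 447 genes called higher, 18 had a larger log2 fold change.

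The spread of Tfrc was uneven between the genotypes. Its coefficient of variation was 7.08% in AE3-null and 26.9% in wild-type libraries, the second above that of 92.7% of all tested genes. The call of Tfrc was lost in 9 of 16 alternatives, among them the fits without any 1 of the 4 AE3-null libraries or of wild-type replicates 1, 3 and 4. Its log2 fold change was lowest when wild-type replicate 4 was left out (0.81) and highest when wild-type replicate 2 was left out (1.11).

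The endosomal steps of uptake showed small differences or none that was called. Steap3, the ferric reductase of the endosome, stood at 71.6, 74.1, 79.4 and 82.3 CPM in AE3-null replicates 1 to 4, against 77.1, 73.4, 83.0 and 76.7 CPM in wild-type replicates 1 to 4. The ranges overlapped almost fully, with a log2 fold change of -0.011 (SE 0.052). Slc11a2, which encodes the divalent metal transporter DMT1, stood at 46.2, 47.9, 46.3 and 49.8 CPM in AE3-null replicates 1 to 4, against 43.0, 45.4, 45.4 and 42.9 CPM in wild-type replicates 1 to 4. The genotypes did not overlap, though their nearest libraries almost met, and with a log2 fold change of 0.11 (SE 0.047) Slc11a2 was not called.

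The mRNA of the iron exporter was lower. Slc40a1 (Entrez 53945, chromosome 1) encodes ferroportin, the exporter of cellular iron. It stood at 14.6, 14.0, 14.1 and 13.3 CPM in AE3-null replicates 1 to 4, against 21.1, 18.2, 20.3 and 22.7 CPM in wild-type replicates 1 to 4. All AE3-null libraries lay below all wild-type libraries, and they lay close together. The mean was 14.0 ± 0.528 CPM in AE3-null and 20.6 ± 1.89 CPM in wild-type hearts (SD, n = 4 each), a log2 fold change of -0.56 (SE 0.075). Slc40a1 fell in AE3-null hearts under each of the 16 alternatives tried, with log2 fold changes from -0.61 to -0.51. Endothelial markers also stood lower. The summed level of 12 of them was 1609 to 1676 CPM in AE3-null and 1804 to 1999 CPM in wild-type libraries. All 12 had negative log2 fold changes with a median of -0.16, as had 7144 of all 14136 tested genes. By edgeR 4 of the 12 fell, beside 3.31% of all tested genes. The genotypes did not overlap for 3 of the 12, beside 6.15% of all tested genes in that direction. The part of the lower endothelial markers in the Slc40a1 difference was not tested. Slc40a1 and Steap3 lie on the same chromosome as Slc4a3, 29.6 and 44.7 Mb away in GRCm38.

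Hamp encodes hepcidin, the hormone that directs ferroportin to degradation. It is made mainly in liver, and in mice also by heart muscle. Hamp stood at 11.3, 8.61, 12.6 and 10.6 CPM in AE3-null replicates 1 to 4, against 6.67, 5.45, 10.5 and 6.36 CPM in wild-type replicates 1 to 4. Wild-type replicate 3 lay inside the AE3-null range and the other wild-type libraries lay below it. The log2 fold change was 0.60 (SE 0.19) and Hamp was not called. Without wild-type replicate 3 it was 0.83 and Hamp was called, as it also was by DESeq2 and limma voom. The liver gene Alb was at 0.337 to 0.736 CPM in AE3-null and 0 to 2.18 CPM in wild-type libraries. The summed level of 8 hepatocyte markers was 14.0 to 15.8 CPM in AE3-null and 11.01 to 20.4 CPM in wild-type libraries. Most of it came from Ahsg, at 10.4 to 12.4 CPM in AE3-null and 9.04 to 12.6 CPM in wild-type libraries. In the reference transcripts Hamp shares 16.6% of its 50-base windows with its copy Hamp2, so the split between the copies is uncertain. Hamp2 was at 1.40 to 3.26 CPM in AE3-null and 1.499 to 2.28 CPM in wild-type libraries.

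The ferritin chains parted from each other. Fth1, the heavy chain with ferroxidase activity, stood at 1323, 1259, 1238 and 1315 CPM in AE3-null replicates 1 to 4, against 1250.1, 1252, 1244 and 1255 CPM in wild-type replicates 1 to 4. The genotypes overlapped and the wild-type libraries lay close together, with a coefficient of variation of 0.361%, against 3.26% in AE3-null libraries. The log2 fold change was 0.038 (SE 0.032) and Fth1 was not called. Ftl1, the light chain that promotes the iron core, stood at 174, 163, 156 and 168 CPM in AE3-null replicates 1 to 4, against 186, 198, 188 and 221 CPM in wild-type replicates 1 to 4. All AE3-null libraries lay below all wild-type libraries. Ftl1 fell by 0.26 on the log2 scale (SE 0.052) and stayed called under each of the 16 alternatives, with log2 fold changes from -0.29 to -0.20.

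Within a library, the count ratio of Fth1 to Ftl1 was 7.61 to 7.92 in AE3-null and 5.68 to 6.71 in wild-type hearts. Ftl1 is the least certain member. In the reference transcripts 90.6% of its 50-base windows occur unchanged in a transcript of another gene, mostly Ftl1-ps1, and 36.7% of its transcript overlaps an antisense model, Gm10252. How reads matching several places or the opposite strand were counted is not given in the sources used here, and Ftl1-ps1 was not analysed here. Fth1 shared 6.59% of its windows, Slc11a2 2.02%, and Tfrc, Slc40a1, Aco1, Ireb2, Hmox1 and Steap3 shared none.

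The iron regulatory proteins are encoded by Aco1, whose product is a cytosolic aconitase when it holds an iron-sulfur cluster, and Ireb2, whose product is degraded when iron is plentiful. Aco1 stood at 61.9, 60.0, 65.5 and 65.1 CPM in AE3-null replicates 1 to 4, against 54.8, 58.2, 57.5 and 56.8 CPM in wild-type replicates 1 to 4. The genotypes did not overlap, and the log2 fold change was 0.15 (SE 0.045). Aco1 lay just on the uncalled side of the threshold and was called in 6 of 16 alternatives, 2 of them other scalings of the libraries. Ireb2 stood at 59.0, 57.6, 57.9 and 58.7 CPM in AE3-null replicates 1 to 4, against 59.7, 54.2, 57.9 and 57.8 CPM in wild-type replicates 1 to 4. The ranges overlapped, and the log2 fold change was 0.023 (SE 0.044).

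Hmox1 encodes the inducible heme oxygenase, which frees iron from heme and is abundant in macrophages. It stood at 11.4, 9.15, 9.73 and 9.02 CPM in AE3-null replicates 1 to 4, against 13.9, 13.4, 11.4 and 9.57 CPM in wild-type replicates 1 to 4. Wild-type replicates 3 and 4 lay inside the AE3-null range, and with a log2 fold change of -0.28 (SE 0.12) Hmox1 was not called. The summed level of 13 macrophage markers was 540.4 to 622 CPM in AE3-null and 568 to 639 CPM in wild-type libraries. None of the 13 was called by edgeR, 3 had an unadjusted p under 0.05, DESeq2 called 1 (Cx3cr1) and limma voom none, and their median log2 fold change was -0.054. The genotypes did not overlap for 2 of the 13, beside 6.10% of all tested genes with AE3-null hearts higher. These were Cx3cr1 (log2 0.71, SE 0.22) and Timd4 (log2 0.40, SE 0.12), both with AE3-null hearts higher. In the other direction, 8 of the 13 had negative log2 fold changes. Among these were Cd163 (log2 -0.36, SE 0.16) and Lyve1 (log2 -0.23, SE 0.098), with overlapping genotypes.

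Levels can be compared between members per kilobase of the principal GENCODE transcript. On that scale Fth1 led, with a mean level of 1382 CPM per kb in AE3-null and 1346 CPM per kb in wild-type hearts, followed by Ftl1 with 171 CPM per kb in AE3-null and 205 CPM per kb in wild-type hearts. Tfrc came next with 45.1 ± 3.19 CPM per kb in AE3-null and 23.5 ± 6.31 CPM per kb in wild-type hearts (SD, n = 4 each). Hamp followed with 26.3 ± 4.08 CPM per kb in AE3-null and 17.7 ± 5.43 CPM per kb in wild-type hearts. In wild-type hearts the levels of Tfrc and Hamp lay within the sum of their SDs, and in AE3-null hearts they did not. Aco1, Slc11a2 and Steap3 stood together, at 14.9 to 16.5 CPM per kb in AE3-null and 14.6 to 15.03 CPM per kb in wild-type hearts, each within the summed SDs of its neighbour. Hamp lay within the summed SDs of Steap3, the next level down, in wild-type hearts, and above those of Aco1 in AE3-null hearts. Ireb2 had 10.1 CPM per kb in AE3-null and 9.95 CPM per kb in wild-type hearts. Slc40a1 was lowest in both, with 4.15 ± 0.157 CPM per kb in AE3-null and 6.10 ± 0.560 CPM per kb in wild-type hearts, below Hmox1 with 6.27 ± 0.713 CPM per kb in AE3-null and 7.69 ± 1.27 CPM per kb in wild-type hearts. Slc40a1 and Hmox1 lay within the sum of their SDs in wild-type hearts and not in AE3-null hearts.

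Red blood cells carry iron in heme, and their precursors are rich in Tfrc. Most of their markers stood lower in AE3-null hearts. The summed level of 10 red blood cell rows was 3494, 3127, 3466 and 2544 CPM in AE3-null replicates 1 to 4, against 4974, 3648, 4508 and 5808 CPM in wild-type replicates 1 to 4. All AE3-null libraries lay below all wild-type libraries. Of 8 tested markers 7 had negative log2 fold changes, and the median over the 8 was -0.60. None of these 7 was called by edgeR, whereas DESeq2 and limma voom each called 6 of them. The rows are not independent: Hba-a1 and Hba-a2 have identical counts and were summed once, and Hbb-b1 and Hbb-b2 differ by at most 1 read in any library, so the sum may hold some globin reads more than once. Hbb-bs alone stood at 511 to 698 CPM in AE3-null and 742 to 1169.6 CPM in wild-type libraries, in the same library order as the sum. The beta globin row Hbb-bs had a log2 fold change of -0.60 (SE 0.17) and the alpha globin row Hba-a1 -0.58 (SE 0.18). The count of Epb42 was 0 to 2 reads in any library.

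Within wild-type hearts the library order of the red cell sum was the reverse of the order of Tfrc and the same as that of Slc40a1. Wild-type replicate 4 had the highest red cell sum, the lowest Tfrc and the highest Slc40a1, and wild-type replicate 2 the lowest sum, the highest Tfrc and the lowest Slc40a1. Within AE3-null hearts the order of Slc40a1 was again that of the sum, but the order of Tfrc was not its reverse: replicate 4 had the lowest sum and the highest Tfrc, while replicate 2 had the next lowest sum and the lowest Tfrc. With 4 libraries in each genotype and the genotypes apart, no correlation was computed. The libraries with the closest sums across genotypes were AE3-null replicate 1 and wild-type replicate 2. Tfrc was at 208 CPM in the AE3-null library of that pair and 151 CPM in the wild-type one, and Slc40a1 was at 14.6 CPM in the AE3-null and 18.2 CPM in the wild-type one. The part of red cell RNA in the Tfrc, Slc40a1 and Ftl1 differences was not tested.

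**Figure D3:**
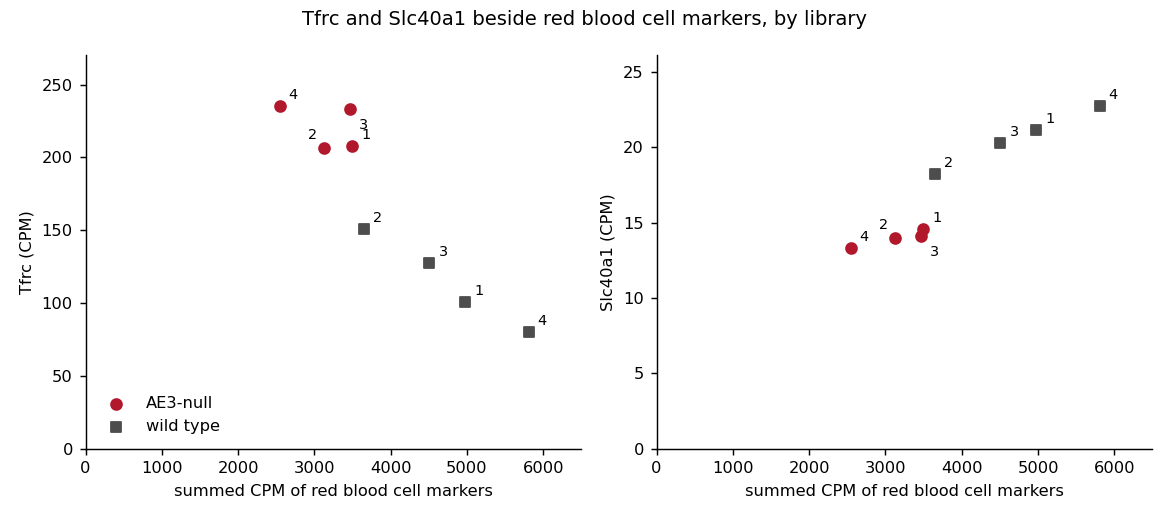
Tfrc (left) and Slc40a1 (right) in CPM against the summed CPM of 10 red blood cell marker rows, 1 point per library with its replicate number, AE3-null as circles and wild type as squares. In wild-type libraries Tfrc was highest and Slc40a1 lowest in replicate 2, which had the lowest red cell sum of that genotype (3648 CPM).

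The rest of the pathway was followed in 7 lists of other iron genes, chosen by function but with earlier results of these data known. Their calls are therefore also given as a description. Of 79 genes, 70 were tested, 5 rose and 3 fell in AE3-null hearts, which is 11.4% called beside 6.47% of all tested genes. Their median log2 fold change was -0.0060.

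Among 9 tested genes of iron entry 2 rose and none fell. Slc39a8, a membrane importer of zinc, manganese and iron, averaged 6.91 ± 0.554 CPM in AE3-null and 5.18 ± 0.869 CPM in wild-type hearts (SD, n = 4 each), a log2 fold change of 0.43 (SE 0.12, edgeR adjusted p 0.0465). Cybrd1, a ferric reductase of the cell surface, averaged 6.49 ± 0.453 CPM in AE3-null and 4.89 ± 0.636 CPM in wild-type hearts (log2 0.40, SE 0.11, edgeR adjusted p 0.0459). The genotypes did not overlap for either gene. Both calls sat close to the threshold. That of Slc39a8 was lost in 9 of 16 alternatives, among them DESeq2 and the fits without each library other than wild-type replicates 1 and 2. That of Cybrd1 was lost in 10, among them DESeq2 and the fits without each library other than wild-type replicate 3. The transferrin gene Trf had a log2 fold change of -0.040 (SE 0.049), and the second transferrin receptor gene, Tfr2, had too few reads to be tested.

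Among 6 tested genes of storage, iron chaperones and export 2 fell and none rose. Cp encodes ceruloplasmin, the ferroxidase that oxidizes iron as ferroportin releases it. Cp stood at 119.5, 113, 109.8 and 108 CPM in AE3-null replicates 1 to 4, against 138, 139, 122 and 129 CPM in wild-type replicates 1 to 4, without overlap. It fell by 0.23 on the log2 scale (SE 0.047, edgeR adjusted p 0.00778). Prnp, the prion protein gene, whose product has been described as a ferric reductase, averaged 163 ± 5.71 CPM in AE3-null and 202 ± 11.3 CPM in wild-type hearts (SD, n = 4 each). It fell by 0.31 (SE 0.043, edgeR adjusted p 0.00053). Heph, the ferroxidase hephaestin, had a log2 fold change of 0.40 (SE 0.15) and was not called. Cp and Prnp stayed called in each of the 16 alternatives.

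Among 13 tested genes of iron sensing and systemic control 2 rose and none fell. Fbxl5, the iron-sensing ubiquitin ligase subunit that marks the Ireb2 product for degradation, averaged 60.4 ± 1.95 CPM in AE3-null and 53.3 ± 1.49 CPM in wild-type hearts (log2 0.18, SE 0.044, edgeR adjusted p 0.0206). Neo1 encodes neogenin, a partner of hemojuvelin in the induction of hepcidin. It averaged 149 ± 4.996 CPM in AE3-null and 134 ± 3.19 CPM in wild-type hearts (log2 0.15, SE 0.037, edgeR adjusted p 0.0198). The hemojuvelin gene Hjv had a log2 fold change of 0.12 (SE 0.048) and Hfe 0.13 (SE 0.072), and neither was called. The call of Fbxl5 was lost without wild-type replicate 4 or AE3-null replicate 3 or 4, and that of Neo1 without wild-type replicate 2 or 4 or AE3-null replicate 4. Bmp6, the signal that raises hepcidin in liver, had a log2 fold change of -0.052 (SE 0.069).

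The mitochondrial list was even between the genotypes. None of 19 tested genes of mitochondrial iron import and iron-sulfur cluster assembly was called by edgeR, DESeq2 or limma voom, and 1, Slc25a28, had an unadjusted p under 0.05 by edgeR. Their log2 fold changes lay between -0.14 and 0.16. The mitoferrin genes Slc25a28 and Slc25a37 had values of 0.16 (SE 0.063, edgeR adjusted p 0.150) and -0.12 (SE 0.058, edgeR adjusted p 0.251). In heme synthesis 1 of 8 genes fell: Cpox, the coproporphyrinogen oxidase, averaged 52.0 ± 1.27 CPM in AE3-null and 61.7 ± 2.93 CPM in wild-type hearts (log2 -0.25, SE 0.047, edgeR adjusted p 0.00474). In heme uptake, export and breakdown 1 of 10 genes rose: Flvcr2, a membrane transporter first described for heme, averaged 6.33 ± 0.662 CPM in AE3-null and 4.71 ± 0.554 CPM in wild-type hearts (log2 0.44, SE 0.12, edgeR adjusted p 0.0345). The call of Flvcr2 was lost with DESeq2 and without wild-type replicate 1 or 4 or AE3-null replicate 1, 3 or 4. Hmox2, the constitutive heme oxygenase, had a log2 fold change of -0.0028 (SE 0.046).

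None of 5 other mRNAs known for an iron-responsive element was called by edgeR, although 3 had an unadjusted p under 0.05, and DESeq2 called Alas2 and Epas1 and limma voom Alas2. Alas2, which starts heme synthesis in developing red cells, stood at 21.9, 22.2, 20.7 and 15.5 CPM in AE3-null replicates 1 to 4, against 31.2, 23.8, 29.8 and 35.0 CPM in wild-type replicates 1 to 4. The genotypes did not overlap (log2 -0.60, SE 0.15, edgeR adjusted p 0.0583), and Alas2 is also 1 of the red cell markers that were lower. Epas1, a subunit of the hypoxia-inducible factors, averaged 482 ± 18.4 CPM in AE3-null and 439.8 ± 18.2 CPM in wild-type hearts (log2 0.13, SE 0.039, edgeR adjusted p 0.0516).

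**Figure D4:**
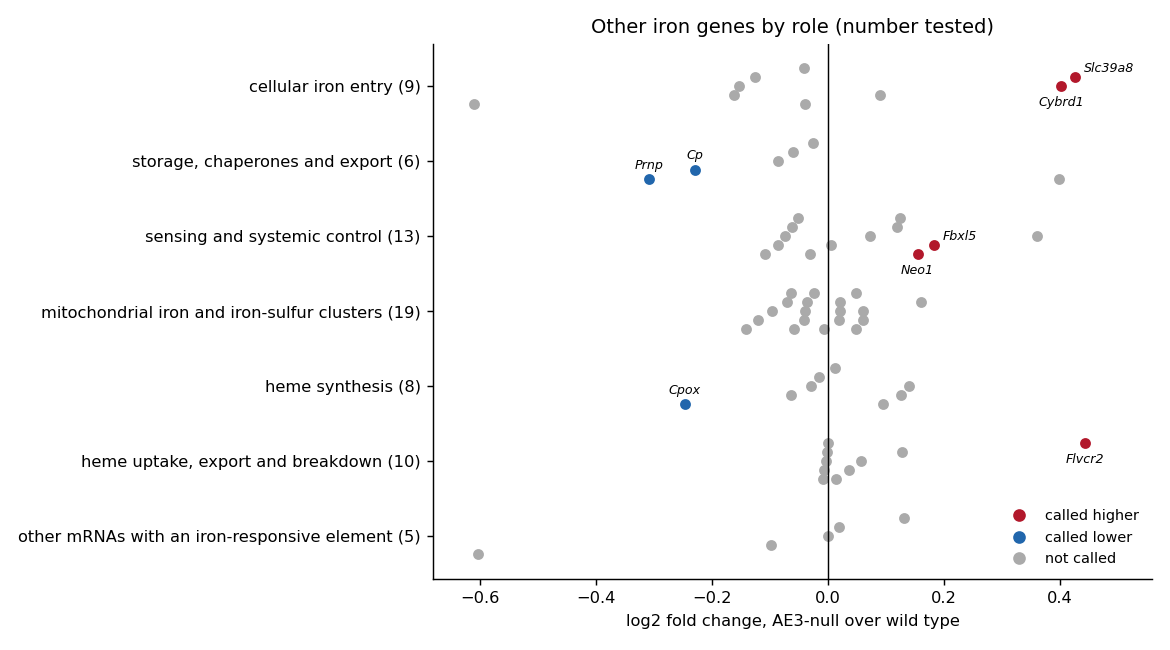
log2 fold change of AE3-null over wild type for 70 other iron genes in 7 lists by role, 1 point per gene, with the genes called higher (red) and lower (blue) named. Calls were 5 higher and 3 lower, and the 19 mitochondrial genes lay between -0.14 and 0.16.

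Promoters were searched in RefSeq's table (GRCm38.p6, 250 bases before to 50 after each start), which held 12 windows of 7 members. It held no window of Slc40a1, Slc11a2 or Hmox1, so their promoters were not searched. ACGTG, a core of the hypoxia response element, was found on either strand in both windows of Tfrc, which overlap each other, and in 19.6% of all 32851 windows. GCGTG, the other form of that core, was found in 5 of 12 member windows (Fth1, Ftl1, Steap3 and Tfrc) and in 32.4% of all. The antioxidant response element TGACNNNGC was found in 0 of 12 and in 12.4% of all, and CAGTGN in the transcribed 50 bases in 1 (Steap3) and in 7.08% of all.

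**Figure D5:**
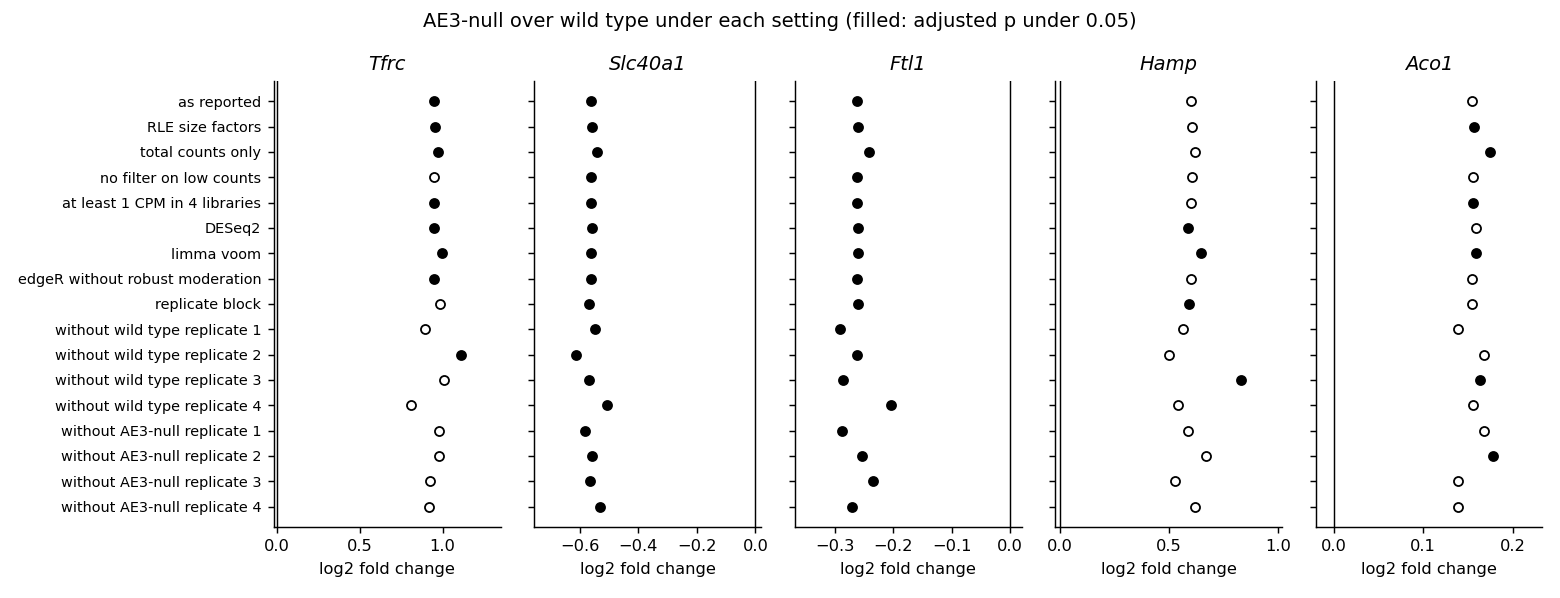
log2 fold change of AE3-null over wild type for Tfrc, Slc40a1, Ftl1, Hamp and Aco1 as reported and under 16 alternatives, filled where the adjusted p was under 0.05. Slc40a1 and Ftl1 were filled throughout, whereas Tfrc was open in 9 of the 16 alternatives, at log2 values between 0.81 and 1.01.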

How the data were processed

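The values are raw read counts per gene (Entrez number), which the authors deposited as 1 table of 8 libraries. The submitters' processing notes name bcl2fastq, CASAVA 1.8, TopHat, DESeq and the build mm9. Which program counted the reads, with which strand setting and annotation, is not given in the sources used here. Symbols were matched through RefSeq's GRCm38.p6 table for 23185 of 23282 genes. Members and lists were chosen with earlier results of these data known. Genes were filtered with filterByExpr (minimum count 10), scaled by TMM and tested by genotype with edgeR's robust quasi-likelihood method, without covariates, over all 8 libraries. P-values were adjusted by Benjamini-Hochberg over 14136 genes, and an adjusted p under 0.05 is a call. A log2 fold change above 0 is higher in AE3-null hearts, and its SE comes from the F statistic. Named genes were Slc4a3, the 10 members and, of each of 7 other iron lists, every called gene or the 2 with the smallest p. Trf, Tfr2, Heph, Hjv, Hfe, Bmp6, Hmox2, Hamp2 and single cell type markers were named after their values were seen. Some listed genes are not reported here. Alternatives were RLE factors, total counts only, no filter, 1 CPM in 4 libraries, DESeq2, limma voom, no robust moderation, the replicate number as a block and each library left out. The chi-square per gene between same-genotype libraries was 2.51 to 7.40, above sampling noise. The steps were tested on simulated counts. Versions were edgeR 4.0.16, DESeq2 1.42.0 and limma 3.58.1 in R 4.3.3. GENCODE M21 (GRCm38) and RefSeq sequences gave hairpins, lengths and promoters, and no coordinate was taken from the files.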

Additional observations from a re-analysis of the deposited data

How the results depend on the processing

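Of 3 members called, 2, Slc40a1 and Ftl1, were called under all 16 alternatives; Tfrc kept its direction in all and its call in 7. The number of members called was 5 with limma voom (Aco1 and Hamp added), and 2 to 4 with single libraries left out. The uncalled values of Steap3 and Ireb2 changed sign: Steap3 was 0.0090 with total counts only and ran from -0.047 to 0.027, and Ireb2 from -0.0018 to 0.043, with single libraries left out. The 8 calls among other iron genes numbered 3 to 11 with single libraries left out: 3 when wild-type replicate 4 was dropped, 4 without AE3-null replicate 3 or 4 and 5 without AE3-null replicate 1. Calls over all genes numbered 407 to 1727 (407 without AE3-null replicate 4, 431 when wild-type replicate 4 was left out, 569 and 581 without AE3-null replicates 3 and 1, 1727 without wild-type replicate 3), against 915. With the replicate number as a replicate block 1002 genes were called, 3 members (Ftl1, Slc40a1 and Hamp, not Tfrc) and 7 other iron genes. Libraries of the same number shared little variation (r of deviations -0.0397 to 0.162), and not every library was closest to its own number. The labels do not state that the numbers pair animals, and so few correlations cannot settle it. Of 352 gene values under the alternatives, 286 kept direction and side of the threshold, 40 lost the call, 21 gained it and 5 changed sign; the cause was not tested. Hamp and Hmox1 rest on 80 to 288 and 85 to 272 reads per library.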

Other observations

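The opposite differences of Tfrc and Slc40a1 met in their ratio within a library. The ratio of Tfrc to Slc40a1, an uptake mRNA over an export mRNA, was 14.3, 14.8, 16.5 and 17.7 in AE3-null replicates 1 to 4, against 4.76, 8.28, 6.29 and 3.52 in wild-type replicates 1 to 4. The ratio of Aco1 to Ireb2, the mRNAs of the iron regulatory proteins, was 1.04 to 1.13 in AE3-null and 0.917 to 1.07 in wild-type libraries, and the genotypes overlapped. These ratios were formed after the values were seen and carry no test.

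None of the 10 members, the 8 called genes of the other iron lists, Slc25a28, Slc25a37, Alas2 and Epas1 had a library that stood apart from the other 3 of its genotype by Dixon's criterion, in 44 groups examined.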
